A study of Sus scrofa with 9 samples.

Results

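The subject is a group of 10 genes in primary Göttingen pig myoblasts that carried a doxycycline-inducible human DUX4, an inducible pig DUXC or, as the control, an inducible GFP. The genes are CAPN6, TMEM100, COMP, PCK1, HSD11B1, SCIN, SV2B, SMOC2, MFAP5 and SCARA5. They are 10 of the 27339 genes counted, and all 10 were among the 15956 with enough counts to be tested. They were picked by name from results of these same libraries, as genes read in the GFP cells and strongly lower with DUX4, and their level with DUXC was set beside it. The low level with DUX4 is therefore how they were chosen, and it is described here without a test. For 9 of the 10 genes the choice set no limit on the comparison of DUXC with GFP, and that comparison was tested. It is not independent of the choice, since the DUXC levels were in view and the GFP libraries are shared. SV2B had also been named for its fall with DUXC, so its values are given without a test throughout.

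Each of the 3 groups held 3 libraries of messenger RNA, sequenced to 36580573 to 44420895 counts each. All cells, the GFP controls included, were at passage 7 to 9 and had 1 µg/mL doxycycline for 16 h before harvest, so that doxycycline and an inducible transgene are common to the 3 groups. Human DUX4 encodes a homeodomain activator of the early embryo, and its misexpression in muscle is the cause of facioscapulohumeral muscular dystrophy. DUXC is a related double homeobox gene that the pig carries. Levels are normalised read counts (CPM, counts scaled to sequencing depth), given per library and then as mean ± SD (n = 3). Transcript lengths were not used here, so CPM compares one gene between libraries and not different genes with each other. Transgene levels were not analysed here. Nothing in the labels ties the libraries of a group to separate cultures, so a p-value here covers the scatter among these libraries alone, and that scatter may be technical.

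Stromal cells make and organise the matrix around muscle fibres and vessels, and fibroblast-like cells are a usual companion of myoblasts in primary muscle cultures. The 10 genes are of several kinds. COMP, MFAP5 and SMOC2 are secreted matrix or matricellular proteins. SCARA5 is a cell surface receptor for ferritin, TMEM100 a small membrane protein linked to BMP signalling, and SV2B a glycoprotein of synaptic vesicles. PCK1 and HSD11B1 are metabolic enzymes, the first for gluconeogenesis and glyceroneogenesis and the second for turning cortisone into active cortisol. CAPN6 is a calpain without protease activity that binds microtubules, and SCIN, also called adseverin, severs and caps actin filaments.

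The stromal part of the name was checked against marker genes that leave the 10 genes out. Transcript lengths were not used, so a limit of 10 CPM shared by many genes is only a coarse guide to which were read. In the GFP libraries 15 of 15 fibroblast genes of the count table had at least 10 CPM, with a median of 2246 CPM. So did 13 of 18 genes of adventitial and fibro-adipogenic stroma. PI16, a defining marker of adventitial fibroblasts, had 34 counts over the 3 libraries. Of 11 myogenic genes none reached 10 CPM in the GFP libraries. The best read were DES with 849 counts over the 3 libraries, MEF2C with 567, PAX3 with 127 and MYF5 with 84. The defining markers of the labelled cell type, named after their values were seen, were scarcer, with 48 counts for PAX7, 6 for MYOG and 1 for MYOD1. Of the lists for other cell types, the smooth muscle and pericyte one had 7 of 11 genes at 10 CPM or more. ACTA2 had 1664 CPM and TAGLN 900 CPM there. Of 8 chondrocyte and tenocyte factors 5 reached 10 CPM. The endothelial list had no count for CDH5 but 6333 for ERG, 1335 for EMCN and 1147 for FLT1. The immune list had none for PTPRC but 769 for CD14 and 755 for ITGAM, and the adipocyte list had none for ADIPOQ but 4850 for PNPLA2. PCK1, SV2B and SCIN are not stromal markers by common use, so the name fits only some of the genes. "Nearly silenced" also fits unevenly, since the share of the GFP level left with DUX4 ran from under 1% in CAPN6 and SCARA5 to 9.73% in MFAP5.

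With DUX4 the 10 genes kept 0.661% to 9.73% of their mean level with GFP, with a median of 3.13%. With DUXC they kept 6.62% to 295%, with a median of 51.7%, and SCARA5 and HSD11B1 stood above their GFP level. All 3 DUX4 libraries lay below all 3 GFP libraries for each of the 10 genes, as they did for 33.1% of the tested genes. A fitted log2 fold change of -3 or lower, which all 10 have by the way they were chosen, was found in 0.501% of tested genes. The median log2 fold change with DUX4 was -4.91 over the 10 genes and 0.003 over all tested genes. In bulk RNA, fewer cells of a type and less RNA per cell cannot be told apart. The 10 genes lie on 9 chromosomes, with SCIN and HSD11B1 on the same one.

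**Figure D1:**
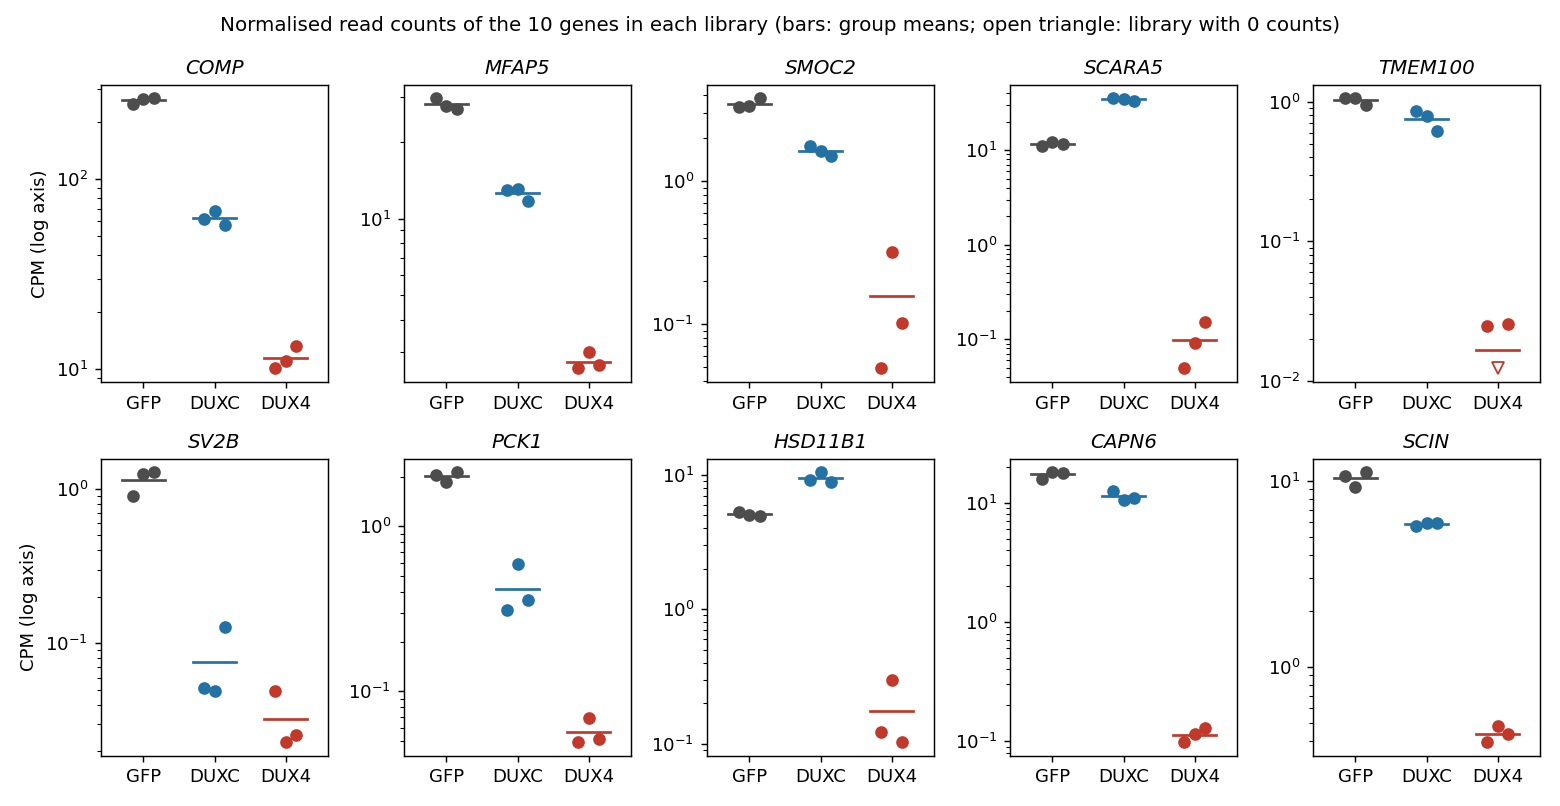
Normalised read counts in CPM, on log axes that differ between panels, for the 10 genes in the 9 libraries. Points are libraries, bars are group means of 3 libraries, and the open triangle marks the DUX4 library in which TMEM100 had 0 counts. Every DUX4 point lies below every GFP point, while the DUXC points of SCARA5 and HSD11B1 lie above the GFP points.

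Among the matrix genes, COMP, a thrombospondin of cartilage and tendon that binds collagen (chromosome 2, 59061409 to 59068951, Sscrofa11.1), had the deepest counts. It had 250.4, 265 and 267 CPM in the 3 GFP libraries, 10.1, 11.06 and 13.2 CPM in the DUX4 libraries and 62.0, 67.8 and 57.2 CPM in the DUXC libraries. The 3 groups did not overlap, and DUXC lay between the other two. The mean was 261 ± 9.04 CPM with GFP and 11.4 ± 1.58 CPM with DUX4, so that 4.39% was left. With DUXC the mean was 62.4 ± 5.31 CPM, and COMP fell by 2.06 ± 0.076 (SE) on the log2 scale (Benjamini-Hochberg adjusted p = 1.25e-08, quasi-likelihood test of edgeR).

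MFAP5, a glycoprotein of the fibrillin microfibrils that carry elastic fibres (chromosome 5, 62742520 to 62757522), had the smallest difference of the 10 with DUX4. Its levels were 29.7, 27.8 and 27.0 CPM with GFP, 2.58, 2.98 and 2.67 CPM with DUX4 and 13.04, 13.1 and 11.7 CPM with DUXC. These groups did not overlap either, and 9.73% of the GFP level was left with DUX4, at a log2 fold change of -3.36. With DUXC 44.7% was left, and MFAP5 fell by 1.16 ± 0.061 on the log2 scale (adjusted p = 1.86e-22, edgeR).

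SMOC2, a calcium-binding matricellular protein of the SPARC family (chromosome 1, 1193163 to 1332739), was scarcer. It had 3.30, 3.36 and 3.80 CPM with GFP, 0.0492, 0.321 and 0.103 CPM with DUX4 and 1.76, 1.64 and 1.504 CPM with DUXC. The DUX4 values came from 2, 14 and 4 reads, and the second library was several times higher than the others. The log2 fold change with DUX4 was -4.40, and -5.47 without DUX4 replicate 2, so this 1 library moves the fold by 2.10 times. With DUXC the gene fell by 1.09 ± 0.16 on the log2 scale (adjusted p = 3.61e-08, edgeR), to 46.8% of its GFP level.

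SCARA5, the ferritin receptor (chromosome 14, 11615629 to 11747336), had the widest gap between the 2 transgenes. It had 11.04, 12.3 and 11.6 CPM with GFP, 0.0492, 0.0918 and 0.154 CPM with DUX4 and 35.2, 34.6 and 33.2 CPM with DUXC. DUX4 libraries were all far below the control and DUXC libraries all above it. The mean with DUX4 was 0.843% of that with GFP, and the mean with DUXC was 295% of it. SCARA5 rose with DUXC by 1.56 ± 0.06 on the log2 scale (adjusted p = 5.03e-28, edgeR). Between the transgenes the means of 34.4 ± 1.01 and 0.0983 ± 0.0526 CPM differed 349.6-fold.

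TMEM100, a membrane protein that in endothelium acts downstream of the BMP receptor ALK1 (chromosome 12, 32008007 to 32014094), had few reads in all groups and was near the floor of detection with DUX4 alone. It had 1.05, 1.05 and 0.9496 CPM with GFP, 0.0246, 0 and 0.0256 CPM with DUX4 and 0.852, 0.784 and 0.612 CPM with DUXC. Over the 3 DUX4 libraries it had 2 counts, against 121 with GFP, a ratio of 62.8 with a 95% counting interval of 17.01 to 524 that covers counting error only. The DUXC libraries were all below the GFP libraries, by a log2 fold change of -0.44 ± 0.238, and this did not pass the test (adjusted p = 0.0831, edgeR). The approximate 95% interval of that difference ran from -0.91 to 0.03.

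SV2B, a vesicle glycoprotein of neurons and endocrine cells (chromosome 7, 87564380 to 87767247), was low with both transgenes. Its levels were 0.906, 1.26 and 1.28 CPM with GFP, 0.0492, 0.0230 and 0.0256 CPM with DUX4 and 0.0517, 0.0490 and 0.127 CPM with DUXC. These are 4 counts over the DUX4 libraries and 9 over the DUXC libraries, against 136 with GFP. The DUX4 and DUXC libraries overlapped, and SV2B is the only one of the 10 genes for which they did. The fitted log2 fold changes were -5.01 with DUX4 and -3.86 with DUXC.

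Of the enzymes, PCK1, the cytosolic phosphoenolpyruvate carboxykinase (chromosome 17, 57930507 to 57936523), had 2.06, 1.85 and 2.13 CPM with GFP. It had 0.0492, 0.0688 and 0.0513 CPM with DUX4, from 2, 3 and 2 reads, and 0.3099, 0.588 and 0.357 CPM with DUXC. DUXC libraries lay between the other groups, without overlap. PCK1 kept 2.81% of its GFP level with DUX4 (log2 -5.07) and 20.8% with DUXC, where it fell by 2.25 ± 0.233 on the log2 scale (adjusted p = 3.13e-12, edgeR).

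HSD11B1, the reductase that regenerates cortisol inside the cell (chromosome 9, 133231451 to 133278396), differed from GFP in opposite directions with the 2 transgenes. It had 5.31, 5.03 and 4.93 CPM with GFP, 0.123, 0.298 and 0.103 CPM with DUX4 and 9.22, 10.5 and 8.85 CPM with DUXC. All DUXC libraries were above the GFP libraries and all DUX4 libraries below them. The mean with DUX4 was 3.43% of that with GFP, at a log2 fold change of -4.81, or -5.45 without DUX4 replicate 2, which had the highest of the 3 values. With DUXC the gene rose by 0.90 ± 0.097 on the log2 scale (adjusted p = 8.76e-12, edgeR). HSD11B1 overlaps C9H1orf74, whose 12.03 CPM with GFP and 9.38 CPM with DUX4 differed far less, and without a stated strand setting reads of the pair may be mixed.

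CAPN6 (chromosome X, 91258696 to 91288128) had the lowest fitted log2 fold change with DUX4 of all tested genes, -7.20. It had 15.8, 18.0 and 17.8 CPM with GFP, 0.0984, 0.115 and 0.128 CPM with DUX4 and 12.6, 10.6 and 11.04 CPM with DUXC. The DUX4 values came from 4, 5 and 5 reads against 647, 701 and 695, and the means were 17.2 ± 1.21 and 0.114 ± 0.0149 CPM. The DUXC libraries lay just below the GFP libraries at 66.1% of their mean, a fall of 0.60 ± 0.072 on the log2 scale (adjusted p = 2.18e-10, edgeR). CAPN6 is thus 151.4-fold lower with DUX4 and 1.51-fold lower with DUXC than with GFP.

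SCIN (chromosome 9, 82103271 to 82185254) had 10.6, 9.27 and 11.11 CPM with GFP, 0.394, 0.482 and 0.436 CPM with DUX4 and 5.68, 5.902 and 5.94 CPM with DUXC. The 3 groups were separate, with DUXC near the middle on the linear scale. SCIN kept 4.23% of its GFP level with DUX4 (log2 -4.55) and 56.6% with DUXC, where it fell by 0.82 ± 0.087 on the log2 scale (adjusted p = 7.26e-12, edgeR). It overlaps the lncRNA gene LOC102164901, which had 33 counts with GFP, none with DUX4 and 38 with DUXC, at least 11.4-fold lower with DUX4 against a floor of 3 counts over the group. Reads of this overlapping pair may also be mixed.

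Over the 9 genes other than SV2B, 6 fell with DUXC, SCARA5 and HSD11B1 rose and TMEM100 did not pass the test. Over all tested genes 42.3% fell and 40.2% rose in the same comparison, so a call in it is common. The DUXC libraries lay wholly below the GFP libraries for 7 of these 9 genes, against 42.8% of tested genes. A fitted log2 fold change of -1 or lower with DUXC was found in PCK1, COMP, MFAP5 and SMOC2, 4 of the 9 genes, against 8.06% of all tested genes. The median log2 fold change with DUXC was -0.82 over the 9 genes and -0.031 over all tested genes. All 3 DUX4 libraries lay below all 3 DUXC libraries in 9 of the 10 genes, and in 42% of the tested genes. Both comparisons use the same GFP libraries.

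**Figure D2:**
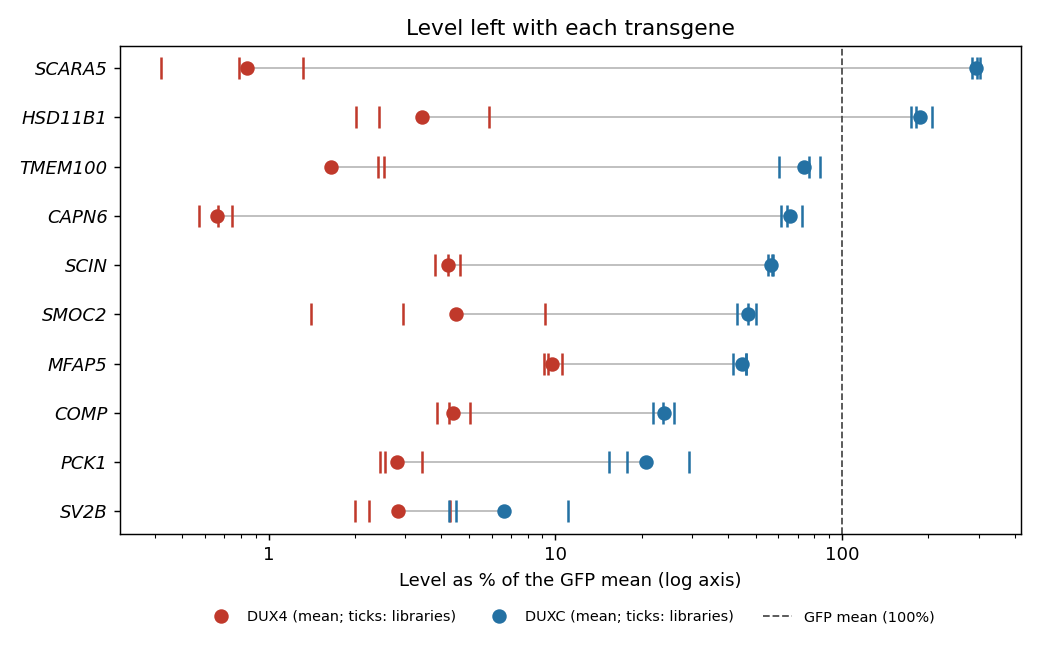
Level of each gene with DUX4 and with DUXC as a percentage of its mean level with GFP, on a log axis. Circles are means of 3 libraries, ticks are single libraries, and the dashed line is the GFP mean; the DUX4 library without a TMEM100 count has no tick. DUX4 means lie between 0.661% and 9.73%, and DUXC means between 6.62% for SV2B and 295% for SCARA5.

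By their pair of levels the genes fall along a range and not into classes. SCARA5 and HSD11B1 were above GFP with DUXC, TMEM100, CAPN6 and SCIN kept 56.6% to 73.6%, and SMOC2 and MFAP5 kept 46.8% and 44.7%. COMP, PCK1 and SV2B kept the least, 23.9%, 20.8% and 6.62%. The order with DUX4 was another one. CAPN6 and SCARA5 kept the least there, and MFAP5 the most. PCK1 and SV2B kept nearly the same share with DUX4, 2.81% and 2.84%, from 7 and 4 counts, and these do not differ beyond counting error: the 95% counting intervals of their GFP to DUX4 ratios were 16.9 to 89.1 and 13.5 to 131.

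The spread between libraries differed among the genes. In the GFP libraries the coefficient of variation of the 10 genes ran from 3.47% for COMP to 18.4% for SV2B. In the DUX4 libraries it was 7.70% for MFAP5, 10.1% for SCIN and 13.1% for CAPN6, and reached 86.7% for TMEM100 and 91.4% for SMOC2. The high DUX4 library was the second for SMOC2, HSD11B1 and MFAP5 and the third for COMP, SCARA5 and CAPN6, so no 1 library was high for all.

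The closest relatives of each gene, listed by family or pathway without the 10 genes, show how far its low level was shared. Of 140 tested relatives 75 fell and 35 rose with DUX4 (median log2 fold change -0.22), against 31.9% lower and 32.9% higher over all tested genes. With DUXC 79 fell and 52 rose, with a median of -0.30, against 42.3% lower and 40.2% higher over all tested genes. In 9 of the 10 lists no relative had a lower fitted log2 fold change with DUX4 than the gene it was listed for, which follows in part from how the genes were chosen. With DUXC this held for COMP and PCK1, and for SV2B, which had been named for that fall.

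**Figure D3:**
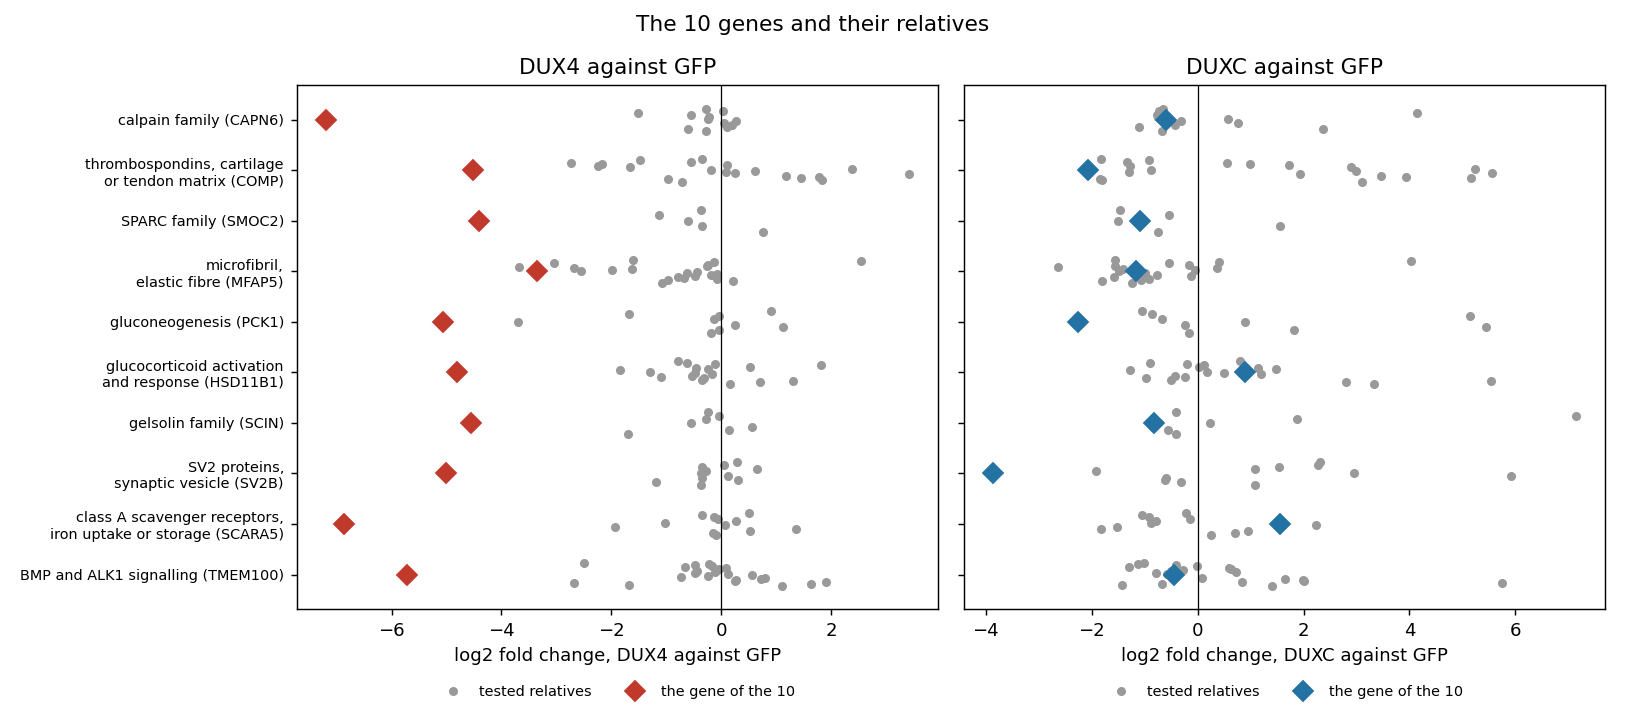
Fitted log2 fold changes against GFP for the 10 genes (diamonds) and the tested relatives in 10 lists (grey points), with DUX4 on the left and DUXC on the right; the 2 axes differ in range. With DUX4 the diamonds lie left of all their relatives except in the microfibril list, where ELN at -3.68 lies beyond MFAP5 at -3.36. With DUXC most diamonds lie among their relatives. Values of genes with few reads in a group depend on the fit's prior count.

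Microfibril and elastic fibre genes were mostly lower. Of 22 tested, 20 fell with DUX4 (18 with either other scaling) and 2 rose, with a median of -0.66. With DUXC 18 fell (17 with DESeq2's size factors and 16 with library size alone) and 3 rose, with a median of -1.07. The main microfibril gene FBN1 fell from 5671 ± 70.0 to 1859 ± 137 CPM with DUX4 and to 1923 ± 99.2 CPM with DUXC. FBLN2, a fibulin of the elastic fibre, fell from 487 ± 11.9 to 159 ± 11.4 and 184 ± 6.53 CPM. The crosslinking enzyme gene LOXL2 rose to 1246 ± 67.0 CPM with DUX4 from 1075 ± 27.3 CPM and fell to 306 ± 2.07 CPM with DUXC. LTBP2 fell with DUXC, at log2 -1.10, and its small fall with DUX4, log2 -0.07, did not pass with DESeq2's size factors or with library size alone. Outside the fixed rule for naming, further genes were chosen after their values were seen. ELN, which encodes elastin, and MFAP2, the paralog of MFAP5 in microfibrils, fell with DUX4 from 19.6 to 1.53 and from 5.06 to 0.609 CPM. FBN2 rose from 0.430 to 2.54 CPM with DUX4 and to 7.06 CPM with DUXC.

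In the SPARC family, SMOC1, the paralog of SMOC2, fell with DUX4 from 51.8 ± 0.568 to 23.7 ± 2.34 CPM and with DUXC to 35.6 ± 1.44 CPM. SPARC fell from 4807 ± 140 to 3750 ± 198 CPM with DUX4 and to 1750 ± 20.3 CPM with DUXC. FSTL1 fell with log2 fold changes of -0.61 and -1.51. SPOCK3, a testican proteoglycan, rose with DUX4 (log2 0.77) and fell with DUXC (log2 -0.75). In all, 4 of 5 tested genes fell and 1 rose with either transgene.

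Among thrombospondins and genes of cartilage or tendon matrix, 8 of 20 fell and 6 rose with DUX4, and 8 fell and 12 rose with DUXC. The abundant thrombospondin THBS1 fell from 17310 ± 69.5 to 13570 ± 426 CPM with DUX4 and to 4859 ± 186 CPM with DUXC. TNC, which encodes the matrix glycoprotein tenascin-C, moved in opposite directions, from 3132 ± 124 CPM up to 11230 ± 488 with DUX4 and down to 901 ± 9.78 with DUXC. COL12A1 fell with both (log2 -0.96 and -1.84), and FMOD rose slightly with DUX4 (log2 0.09) and fell with DUXC (log2 -1.29). Scarcer members of the list, named after their values were seen, moved both ways with DUX4. THBS4, a thrombospondin paralog of COMP, fell from 8.55 to 1.28 CPM (log2 -2.73). The matrilin genes MATN4 and MATN2 fell with log2 fold changes of -2.25 and -2.16. HAPLN1 rose from 0.530 to 5.70 CPM (log2 3.42) and COL11A1 from 3.945 to 10.9 CPM (log2 1.46).

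Among class A scavenger receptors and iron genes no relative of SCARA5 went below a log2 fold change of -1.94 with DUX4. Of 12 tested, 6 fell and 4 rose with DUX4, with a median of -0.08, and 8 fell and 4 rose with DUXC, with a median of -0.51. The receptor gene COLEC12 fell from 268 ± 3.00 to 212 ± 5.39 CPM with DUX4 and to 131 ± 3.75 CPM with DUXC. SCARA3, another receptor gene of the list, was named after its values were seen. It rose with DUX4 from 203 to 287 CPM (log2 0.50) and fell with DUXC to 174 CPM (log2 -0.22). The ferritin heavy chain gene FTH1 fell with log2 fold changes of -0.13 and -0.92. HMOX1, the heme-degrading enzyme, rose with DUX4 (log2 1.36) and fell with DUXC (log2 -1.82). The ferritin light chain gene FTL fell with DUXC at log2 -0.15, a call lost with library size alone, and had log2 -0.05 with DUX4, which did not pass (adjusted p = 0.155, edgeR).

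BMP and ALK1 signalling genes, listed for TMEM100, were split, with 11 of 24 lower and 9 higher with DUX4 and 13 lower and 9 higher with DUXC. The BMP target ID1 rose with DUX4 (log2 0.57) and fell with DUXC (log2 -0.45), while ID3 fell from 936 ± 14.5 to 565 ± 27.2 and 687 ± 36.7 CPM. ID2 fell by smaller amounts with both. The co-receptor gene ENG fell with log2 fold changes of -0.22 and -1.12. ACVRL1, the gene of ALK1, lies outside the naming rule and was looked at for its link with TMEM100. It fell from 5.07 to 0.899 CPM with DUX4 (log2 -2.49) and to 2.49 CPM with DUXC (log2 -1.02).

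For SV2B, the list of SV2 proteins and synaptic vesicle genes had 3 of 11 lower and 1 higher with DUX4, and 4 lower and 7 higher with DUXC. Its paralogs SV2A and SV2C, again outside the naming rule, were not called with DUX4 (adjusted p = 0.489 and 0.894, edgeR). Both rose with DUXC, from 0.313 to 1.57 CPM and from 0.592 to 2.87 CPM, where SV2B was low. VAMP2 fell with both transgenes (log2 -0.35 and -0.59) and RAB3A fell with DUX4 and rose with DUXC (log2 -0.36 and 1.08). STX1A fell with DUX4 (log2 -1.19). Its call with DUXC, at log2 -0.32, was lost with either other scaling, and that of SNAP25, at log2 -0.61, with library size alone.

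Of 9 tested gluconeogenesis genes 4 fell and 2 rose with DUX4, and 5 fell and 3 rose with DUXC. The mitochondrial isozyme gene PCK2 rose with DUX4 from 90.6 ± 5.70 to 171 ± 9.18 CPM and fell with DUXC to 43.8 ± 1.31 CPM, so with DUX4 it moved opposite to PCK1. PC, which encodes pyruvate carboxylase, fell from 83.9 ± 3.02 to 26.1 ± 1.29 CPM with DUX4 and to 46.4 ± 0.992 CPM with DUXC. G6PC3 fell with both (log2 -0.13 and -0.67). FOXO1, a transcription factor of the pathway, fell with DUX4 (log2 -0.19), and its call with DUXC (log2 -0.16) was lost with either other scaling. FBP1, named after its values were seen, had 17 counts with GFP and 1 with DUX4, a ratio of 17.6 with a 95% counting interval of 2.76 to 737.

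Genes of glucocorticoid activation and response, listed for HSD11B1, were lower with DUX4 in 12 of 18 and higher in 5, with a median of -0.33. With DUXC 7 fell and 7 rose, with a median of 0.15, and 10 rose with either other scaling. The glucocorticoid receptor gene NR3C1 fell little, from 109 ± 0.540 to 101 ± 2.72 and 94.6 ± 1.80 CPM. CEBPD fell from 318 ± 3.62 to 148 ± 3.80 CPM with DUX4 and to 269 ± 14.3 CPM with DUXC. DUSP1 fell with DUX4 and rose with DUXC (log2 -0.48 and 0.50), as HSD11B1 was lower and higher, and ERRFI1 fell with both (log2 -0.53 and -0.43). H6PD, whose product supplies the cofactor of HSD11B1 and which was named for that link, fell from 29.5 to 19.1 and 15.7 CPM.

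Of the 12 tested calpain relatives of CAPN6, 4 fell and 3 rose with DUX4, with log2 fold changes of -1.52 to 0.28. With DUXC 8 fell and 3 rose. CAPN1 fell from 189 ± 3.92 to 156 ± 6.05 CPM with DUX4 and to 120 ± 2.83 CPM with DUXC, and the calpain inhibitor gene CAST fell with log2 fold changes of -0.28 and -0.68. CAPN2 was not called with DUX4 (448 ± 8.20 and 459.5 ± 11.5 CPM, adjusted p = 0.293, edgeR) and fell with DUXC (log2 -0.73). CAPNS1 rose slightly with DUX4 and fell with DUXC (log2 0.11 and -1.11).

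In the gelsolin family of SCIN, 3 of 7 fell and 2 rose with DUX4, and 4 fell and 3 rose with DUXC. GSN, the broadly expressed gelsolin, fell from 595 ± 15.2 to 508 ± 22.7 and 449 ± 8.40 CPM. CAPG and FLII rose with DUX4 (log2 0.56 and 0.14) and fell with DUXC (log2 -0.84 and -0.56). AVIL fell with DUX4 and rose with DUXC (log2 -0.55 and 0.24).

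General stromal genes moved in both directions with DUX4, more of them down. Over all tested genes 31.9% fell and 32.9% rose with DUX4, and 42.3% fell and 40.2% rose with DUXC. Of 17 tested adventitial and fibro-adipogenic genes, 11 fell (10 with either other scaling) and 3 rose with DUX4 (median log2 fold change -0.35), and 11 fell and 5 rose with DUXC, with a median of -0.69. The proteoglycan gene DCN fell from 2109 to 800.4 and 1156 CPM. PDGFRA, a receptor that marks fibro-adipogenic progenitors, fell with DUX4 from 373 ± 5.67 to 163 ± 11.97 CPM and rose with DUXC to 926 ± 12.96 CPM, the same directions as in SCARA5 and HSD11B1. COL15A1 fell with log2 fold changes of -0.24 and -1.54, and THY1 with -0.47 and -0.69. Of 15 fibroblast genes 10 fell and 5 rose with DUX4 (median -0.42), where 8 fell with DESeq2's size factors and 9 with library size alone. With DUXC 13 fell and 1 rose (median -1.03), or 12 and 2 with either other scaling. COL1A1, COL1A2 and COL3A1 fell with DUX4 by 0.67, 0.62 and 0.98 on the log2 scale, and with DUXC the changes were -1.67, -1.30 and -0.29. FN1 fell with DUX4 (log2 -0.42), and its DUXC call at log2 -0.11 was lost with either other scaling. Among those that rose with DUX4, named after their values were seen, were VIM, which encodes the intermediate filament vimentin, from 7622 to 13650 CPM (log2 0.84), and POSTN (log2 0.77). The stromal genes DPT, NT5E and DPP4 rose as well, with log2 fold changes of 2.18, 0.91 and 0.82.

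Markers of other cells and states moved as well, and their part in the low levels of the 10 genes was not tested. The shares to set beside their counts are again 31.9% lower and 32.9% higher with DUX4, and 42.3% and 40.2% with DUXC. All 12 proliferation genes rose with DUX4, with summed levels of 156 to 163 CPM with GFP, 954 to 1018 CPM with DUX4 and 425 to 459 CPM with DUXC, where 11 of 12 rose. Smooth muscle and pericyte genes fell in 8 of 11 with DUX4 and rose in 2, and fell in 9 and rose in 2 with DUXC, with summed levels of 2945 to 3150 CPM with GFP, 1190 to 1295 CPM with DUX4 and 723 to 756 CPM with DUXC. Summed levels with GFP, DUX4 and DUXC were 14.1 to 14.9, 14.3 to 15.9 and 27.2 to 28.3 CPM for 11 myogenic genes. For 10 endothelial genes they were 78.9 to 82.6, 124 to 132 and 85.7 to 89.6 CPM, and for 10 immune genes 17.1 to 20.1, 15.1 to 17.3 and 21.2 to 23.9 CPM. For 10 adipocyte genes they were 41.4 to 45.6, 36.1 to 37.3 and 78.2 to 83.3 CPM, for 8 chondrocyte and tenocyte factors 182 to 204, 176 to 194 and 447 to 507 CPM, and for 7 Schwann cell and neural genes 109.5 to 117, 228 to 231 and 76.4 to 81.0 CPM. Single genes carry much of these last 3 sums. PNPLA2 had 40.9 CPM with GFP, and NES went from 18.45 to 115 CPM with DUX4. EGR1 went from 95.4 to 365 CPM with DUXC, where SOX9 fell from 24.9 to 10.3 CPM. Of the 8 chondrocyte and tenocyte factors 2 fell and 4 rose with DUXC. The defining markers CDH5, PTPRC and ADIPOQ had 2, 0 and 0 counts over the DUX4 libraries and 11, 16 and 6 over the DUXC libraries. Other genes of these lists moved both ways with DUX4, and those named here were chosen after their values were seen. Of 6 tested endothelial genes 1 fell and 4 rose, of 6 immune genes 2 fell and 3 rose, and of 6 adipocyte genes 3 fell and 3 rose. From GFP to DUX4, FLT1 went from 1147 to 4715 counts, KDR from 2 to 95, PPARG from 40 to 286 and FABP4 from 0 to 192. EMCN went down from 1335 to 322 counts, CSF1R from 317 to 79 and CEBPA from 122 to 18.

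Other genes with a like pattern were sought among 9723 named genes of at least 5 CPM with GFP, by the distance between the pairs of fitted log2 fold changes with DUX4 and with DUXC. The nearest gene was NHS for MFAP5, at a distance of 0.241, with 11.6 ± 0.419 CPM with GFP, 1.29 ± 0.185 CPM with DUX4 and 5.69 ± 0.361 CPM with DUXC. For COMP it was ASPN, a small leucine-rich proteoglycan gene, at 0.791, with 235 ± 11.9, 17.6 ± 1.305 and 50.5 ± 2.53 CPM. IGF1, a growth factor gene with 222, 5.20 and 25.6 CPM, was the nearest for PCK1, SV2B and CAPN6, at 0.939, 0.851 and 3.09. ISM1 was nearest to SMOC2, at 1.18, and LURAP1L to SCIN and TMEM100, at 1.25 and 2.25. RNASE4, a secreted ribonuclease gene, was nearest to HSD11B1 and SCARA5, at 1.33 and 3.32, with 26.3 ± 1.33, 2.26 ± 0.312 and 65.9 ± 1.56 CPM. The distances of CAPN6, SCARA5 and TMEM100 follow in part from the choice of the genes for their low level with DUX4 and from the limit of 5 CPM. The 6 genes are distinct from the 10, and the likeness rests on 3 group means of 3 libraries each.

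The 10 genes are not the only ones so low with DUX4. Of 10234 genes with at least 5 CPM with GFP, 27 had a fitted log2 fold change of -3 or lower with DUX4, and 6 of these are among the 10, the other 4 having less than 5 CPM with GFP. Of the 21 others 15 fell with DUXC and 4 rose, with a median log2 fold change of -1.62. MFAP5, at -3.36, has the smallest difference among the 10, and 8 of the 21 others lie below it, from IGF1 at -5.42 to LURAP1L at -3.49. INHBB, at -3.34, is the first above it. The choice of the 10 therefore followed no single limit on the fold change.

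Chromosomal neighbours of the 10 genes were higher and lower with DUX4. The nearest 2 tested genes on each side of the 10 genes, 40 in all without genes that overlap them, had fitted log2 fold changes of -2.40 to 6.85 with DUX4 and a median of -0.12. None of the 40 reached -3, but only 0.501% of all tested genes had a value of -3 or lower, so this does not set the neighbours apart. LOC102164901, which overlaps SCIN, had no count with DUX4, as given above. Of the 40, 19 fell and 9 rose with DUX4, against 31.9% lower and 32.9% higher over all tested genes. With DUXC 15 fell and 16 rose, against 42.3% and 40.2%. The neighbours of SMOC2 all fell with DUX4: the thrombospondin gene THBS2, 310696 bases before it, from 670 to 240 CPM (log2 -1.48), AFDN on the other side from 30.3 to 10.5 CPM (log2 -1.53), WDR27 with log2 -1.24 and LOC106506286 with log2 -2.40. Around CAPN6, CHRDL1, DCX and ALG13 fell with DUX4 with log2 fold changes of -0.39, -0.54 and -0.45, and PAK3, which ends 14365 bases before it, had 16.1 and 15.2 CPM (adjusted p = 0.267, edgeR). CRTC1, which starts 383 bases after COMP, fell from 25.2 to 18.5 CPM (log2 -0.45). SCARA5 overlaps LOC110256888, which had no count with GFP or DUX4.

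**Figure D4:**
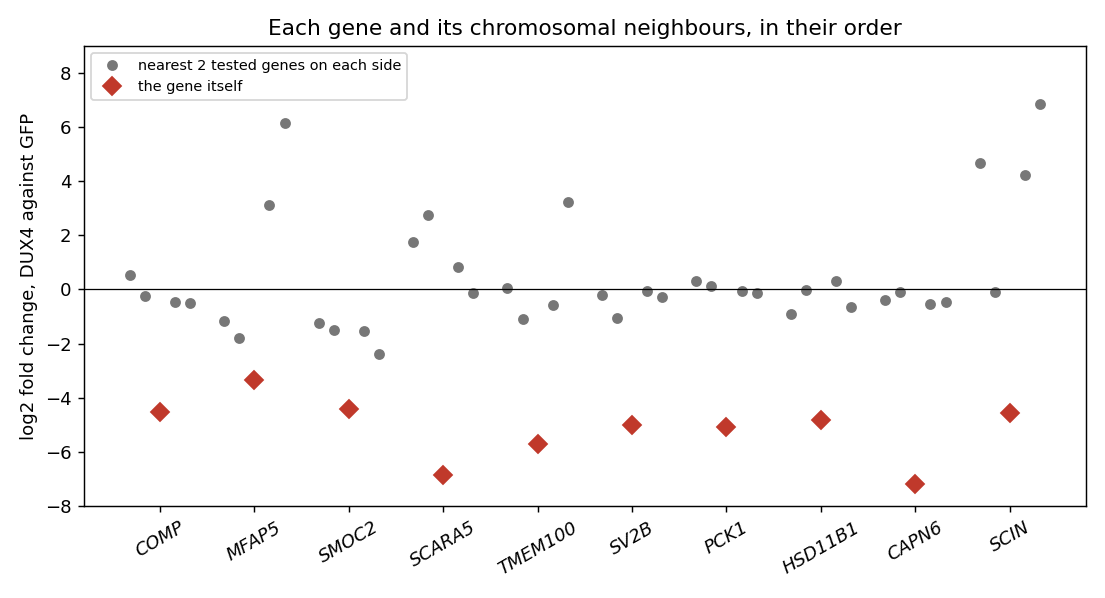
Fitted log2 fold change with DUX4 against GFP for each of the 10 genes (diamonds) and for the nearest 2 tested genes on each side (grey points, in chromosomal order, distances not to scale). Diamonds lie between -7.20 and -3.36, and the 40 neighbours between -2.40 and 6.85. Points of genes with few reads in a group depend on the fit's prior count.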

How the data were processed

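Messenger RNA of 9 libraries was analysed from raw read counts per gene as the authors deposited them. Per the submitters' processing notes, CASAVA 1.9, Trim Galore, the build Sscrofa11.1 and featureCounts were used, and per the file headers the alignments are named for Subread. For the other versions, the annotation release and the strand setting: not given in the sources used here.

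Counts were filtered by group with filterByExpr (15956 of 27339 genes kept), scaled by TMM and fitted over all 9 libraries in edgeR 4.0.16 (R 4.3.3) with robust quasi-likelihood estimation. Tests were two-sided, with Benjamini-Hochberg adjustment within a contrast and a threshold of 0.05. Standard errors are log2 fold changes divided by the root of F, and are approximate for scarce genes. Scaling by library size alone moved the median log2 fold change with DUXC by 0.125. Common dispersion, estimated over the 3 groups together, was 0.00114 (coefficient of variation 3.38%). Libraries of a group differed beyond sampling noise, most of all those with DUX4. Chi-square over its degrees of freedom was 2.71 to 3.84 for pairs of GFP libraries, 3.36 to 4.66 for DUXC and 7.29 to 19.3 for DUX4. A group floor of 3 counts was 0.0253 CPM with GFP, 0.0243 CPM with DUX4 and 0.0252 CPM with DUXC. The fit was first tested on simulated data. An exact permutation test of 3 against 3 libraries reaches 0.1 at the lowest, so none was used.

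The 10 genes and the lists were chosen with earlier results of these data known. Named relatives are up to 4 of each list, those most abundant with GFP that passed in either contrast; others are marked as chosen after their values were seen. Alternatives were DESeq2 1.42.0, limma-voom (limma 3.58.1), other scalings, no filter, 2 groups only, a replicate block and leaving out each library. Positions are from RefSeq for Sscrofa11.1. Promoter and protein sequences were not analysed here.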

Additional observations from a re-analysis of the deposited data

How the results depend on the processing

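The numbers of genes lower in each contrast (5093 with DUX4 and 6743 with DUXC against GFP, and 6635 with DUX4 against DUXC) stayed within 1.5 times under every alternative run. With each library left out they were 4787 to 5098, 6558 to 6912 and 6541 to 6830. The replicate numbers do not pair the libraries, since deviations of same-numbered libraries correlated by -0.0839 to 0.0998. With the replicate block the counts were 5068, 6722 and 6600, and no call of the 9 genes tested changed. Library size alone gave 4761, 5723 and 7379. For the 9 genes other than SV2B, all 144 alternative values with DUXC against GFP kept their direction and their side of the threshold, including TMEM100, whose adjusted p ran from 0.0663 to 0.282 in edgeR, DESeq2 and limma. With DUX4 against GFP 154 of 160 values moved by less than the spread between libraries, 6 moved by more and none reversed. Leaving out DUX4 replicate 2 moved SMOC2 to -5.47 and HSD11B1 to -5.45 against GFP, and to -4.37 and -6.35 against DUXC, the only values to move over 1.5 times. SV2B gave no value in the fit of the DUX4 and DUXC libraries alone, where it did not pass the filter. Depth limits TMEM100, SV2B and PCK1 most, with 2, 4 and 7 counts over the DUX4 libraries.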
